A study of Mus musculus with 12 samples.

Results

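PIR+ and PIR- progenitors of the wild-type mouse fetal liver were compared in 6 of the 12 libraries of the series, 3 of each subset, taken by sample title. Of the 23420 genes in the deposited table, 4542 reached 10 in 3 or more of the 12 value columns and were tested. The other 6 libraries hold the same subsets from KO animals, for which the labels name no target gene. Per the labels, all cells were sorted from fetal liver by flow cytometry as lineage-negative, c-Kit+ and IL7Ra+, with or without PIR, and each library was made from a tube of 100 cells with barcoded oligo-dT primers, template switching and PCR. No agent was given to any group. The labels name no strain or sex, and none ties a library to its own animal or litter. The p-values therefore measure the spread between these libraries, which may be technical. The fit takes that spread in large part from other genes of similar level, so a very small p is not a single gene's own spread. The labels leave some doubt about the stage and the gate. The source name gives E12.5 (embryonic day) for PIR+ wild-type replicates 1 and 2 and for PIR- wild-type replicates 2 and 3, and E14.5 for PIR+ replicate 3 and PIR- replicate 1, whereas the series title gives E12.5 alone and calls the PIR- subset IL7R-negative. In 3 of the 6 wild-type libraries (PIR+ replicate 3 and PIR- replicates 2 and 3) the sign of PIR in the markers field contradicts the title. The KO libraries, which enter the fits, are labelled E14.5 for PIR+ replicates 1 and 2 and PIR- replicates 2 and 3. The remaining KO libraries are labelled E12.5. Their markers sign contradicts the title in PIR+ KO replicates 1 and 2 and PIR- KO replicate 1.

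PIR, the paired immunoglobulin-like receptor, is a family with activating members (PIR-A, encoded by the Pira genes), which signal through the adaptor encoded by Fcer1g, and an inhibitory member (PIR-B, encoded by Lilrb3), which recruits phosphatases such as the product of Ptpn6. In the fetal liver, PIR has been used to mark early lymphoid progenitors that can seed the thymus. Cells that enter the B lineage assemble instead a pre-B receptor from the surrogate light chain (Igll1 and the Vpreb proteins) and the signalling pair Cd79a and Cd79b, under transcription factors such as Ebf1, the E protein E2A (Tcf3) and Foxo1.

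The promoters of 3 genes that were high in PIR- and 3 that were high in PIR+ libraries are shown, because the genes of each trio moved together and each trio shares a short motif. Each sequence is the 250 bases before the RefSeq transcription start on build GRCm38.p6, in the direction of transcription. In the first 3, capitals mark CAGGTG, a letter sequence bound by E proteins, or its reverse complement. Igll1 lies at chr16:16863986-16864235 on the minus strand, Vpreb1 at chr16:16869256-16869505 on the minus strand and Cd79a at chr7:24897247-24897496 on the plus strand.
Igll1: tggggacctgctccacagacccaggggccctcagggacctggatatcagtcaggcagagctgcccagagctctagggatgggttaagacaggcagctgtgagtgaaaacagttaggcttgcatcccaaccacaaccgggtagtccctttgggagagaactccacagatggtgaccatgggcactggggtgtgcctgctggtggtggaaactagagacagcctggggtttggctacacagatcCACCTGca
Vpreb1: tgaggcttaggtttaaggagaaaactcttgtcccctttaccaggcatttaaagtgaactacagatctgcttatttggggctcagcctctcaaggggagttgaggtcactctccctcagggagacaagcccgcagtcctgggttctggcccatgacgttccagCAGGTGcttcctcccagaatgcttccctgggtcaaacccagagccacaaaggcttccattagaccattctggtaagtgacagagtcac
Cd79a: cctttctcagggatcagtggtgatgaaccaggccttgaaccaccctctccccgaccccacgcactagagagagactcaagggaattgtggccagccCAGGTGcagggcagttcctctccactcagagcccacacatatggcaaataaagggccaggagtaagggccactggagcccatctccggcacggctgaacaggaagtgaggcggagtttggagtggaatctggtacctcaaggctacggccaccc
In the next 3, capitals mark GAGGAAGT, a letter sequence bound by PU.1, the product of Sfpi1. Mpo lies at chr11:87793534-87793783 on the plus strand, Prtn3 at chr10:79879417-79879666 on the plus strand and Pira2 at chr7:3845052-3845301 on the minus strand.
Mpo: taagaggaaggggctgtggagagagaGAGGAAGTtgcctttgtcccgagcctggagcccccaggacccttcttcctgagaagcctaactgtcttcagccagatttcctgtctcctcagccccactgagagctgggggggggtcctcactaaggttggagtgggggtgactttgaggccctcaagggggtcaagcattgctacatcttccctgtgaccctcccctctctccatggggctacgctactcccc
Prtn3: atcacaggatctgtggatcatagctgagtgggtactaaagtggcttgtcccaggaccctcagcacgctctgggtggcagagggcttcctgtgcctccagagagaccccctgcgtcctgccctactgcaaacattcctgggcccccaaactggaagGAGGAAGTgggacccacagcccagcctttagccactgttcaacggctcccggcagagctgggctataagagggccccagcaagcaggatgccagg
Pira2: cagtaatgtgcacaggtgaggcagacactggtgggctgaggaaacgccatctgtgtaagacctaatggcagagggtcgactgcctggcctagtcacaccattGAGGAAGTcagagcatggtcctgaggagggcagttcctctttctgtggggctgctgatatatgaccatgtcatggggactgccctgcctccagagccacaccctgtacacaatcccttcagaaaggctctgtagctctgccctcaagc
The E-box began 8, 88 and 154 bases before the start of Igll1, Vpreb1 and Cd79a, and the PU.1 letters began 224, 95 and 148 bases before the start of Mpo, Prtn3 and Pira2. Both strands were searched, and none of these matches overlapped a match of another motif searched. The Pira2 promoter also holds CAGGTG, 238 bases before its start, and the Igll1 promoter holds the Runx letters given below, 123 bases before its start, neither of them in capitals here. CAGGTG was in the promoter of 19.4% of all genes with an entry, 16.4% of tested genes, 21.0% of the genes higher in PIR+ on both scales defined below and 25.4% of those lower. GAGGAAGT was in 2.79%, 3.23%, 5.37% and 2.38% of the same sets. The Runx letters TGTGGT were in 15.9%, 12.4%, 17.4% and 12.7%, and the EBF letters, TCCC and GGGA with 2 bases between them, were in 0.914%, 1.01%, 1.28% and 0.794%. These are matches of letters in windows, not binding sites. An entry was found for 391 of the 524 higher and 126 of the 168 lower genes.

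The receptor genes followed the titles. Values throughout are the deposited normalised values of the molecule-barcoded libraries, given for replicates 1, 2 and 3 in that order or as mean ± SD (n = 3). Pira2 (chromosome 7, 3836812 to 3845051, GRCm38, GENCODE M21) was 28.2, 35.7 and 33.1 in the PIR+ libraries and was listed at 0 in each PIR- library. Pira1 was 10.5, 16.0 and 15.5 and Lilrb3 was 9.5, 11.3 and 14.3 in PIR+, and both were also listed at 0 in each PIR- library. All 3 PIR+ libraries were thus above all 3 PIR- libraries, those with the opposite markers field included. Reads may be split among these near-identical genes, so the value of a single Pira gene is uncertain. Il7r, the interleukin-7 receptor of the gate, was 16.9 ± 3.03 in PIR+ and 18.9 ± 2.29 in PIR- libraries. The groups overlapped, and the log2 difference (PIR+ minus PIR-) was -0.16 ± 0.27 (SE; limma, adjusted p = 0.624). It was -0.65 (adjusted p = 0.031) after the second scaling described below. Kit, the stem cell factor receptor, was 41.9, 34.2 and 52.9 in PIR+ and 19.1, 25.6 and 18.6 in PIR- libraries. The Kit groups did not overlap, and the difference of 0.99 ± 0.23 passed the test (adjusted p = 0.000427) on the deposited scale but not on the other (adjusted p = 0.0532), nor on the deposited scale without the 5 globin-rich libraries of the series (adjusted p = 0.0557).

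The libraries of the subsets differed in total and in globin messages. Summed values were 227760 ± 25245 in PIR+ and 168084 ± 17100 in PIR- libraries, 1.36 times higher in PIR+ (two-sided exact permutation test, p = 0.1, the smallest possible for 3 against 3). Genes above 0 numbered 10965 ± 119 and 10255 ± 331 (exact permutation p = 0.1). Across genes, log values correlated at 0.945 to 0.949 among PIR+ libraries, 0.935 to 0.941 among PIR- libraries and 0.781 to 0.827 between the subsets. Globin genes took 0.0172%, 0.0158% and 0.559% of the sum in PIR+ and 0.161%, 1.39% and 1.27% in PIR- replicates 1 to 3. The 3 globin-rich libraries are the 3 whose markers field is opposite to the title. Rn4.5s, a small non-coding RNA, was 1424.7, 2180.8 and 2342.8 in PIR+ and 3043.3, 2714.7 and 4023.2 in PIR- libraries, a difference of -0.73 whose call was lost within the libraries with the opposite markers field and without the globin-rich ones. Their part in the results that follow was not tested beyond the fits that leave libraries out.

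**Figure D1:**
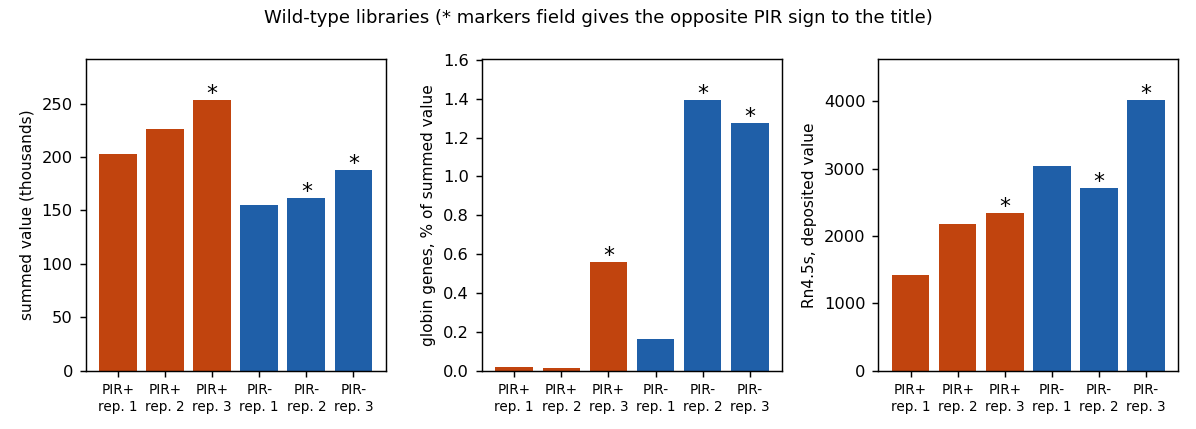
Bars give each wild-type library's summed value, the share of globin genes in that sum in percent, and the deposited value of Rn4.5s, with PIR+ in orange and PIR- in blue and a star on the 3 libraries whose markers field is opposite to the title. The PIR+ sums all exceed the PIR- sums, and the 3 starred libraries hold 0.559% to 1.39% globin against 0.0158% to 0.161% in the others.

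In 692 genes the subsets differed on both of the scales described below. Each gene was tested with limma on log2(value + 1), and again after scaling by the median of ratios, which brings the typical gene to equality. A gene is called on both scales where the Benjamini-Hochberg adjusted p is under 0.05 with the same sign on each. On the deposited scale 2015 of 4542 genes (44.4%) passed, of which 1846 were higher (40.6%) and 169 lower (3.72%) in PIR+, and the median gene was 0.51 higher in PIR+ on the log2 scale. After scaling that median was 0.02 and 1025 genes (22.6%) were called, 524 higher (11.5%) and 501 lower (11.0%). The share of calls that were higher thus fell from 91.6% to 51.1%. Called on both scales were 692 genes (15.2%), 524 higher (11.5%) and 168 lower (3.7%), and the lists below are counted in this way. All 692 were also called, with the same sign, when the library sums were set equal. Setting sums equal shifts the subsets by less than the median-of-ratios scaling does, so this was largely fixed in advance and is no further support. Of the tested genes, 487 reached 10 in no PIR- library and 73 in no PIR+ library of the 12, so they passed the filter only through the subset where they were high. Counts and medians of the lists describe the members that passed and are in part set by this filter. The p-values of these 487 and 73 genes are likewise in part set by it. Each stands beside 11.5% higher, 3.7% lower and a median of 0.51 over all tested genes. Of the 692 genes, 44 higher and 27 lower ones differed by over 3 on the log2 scale. The 6 libraries did not overlap for 2362 genes (52.0%), 2164 of them higher (47.6%) and 198 lower (4.36%) in PIR+. In the authors' deposited table, the DESeq2 p for this comparison was under 0.05 in 586 of these 692 genes, and in 593 of the larger set of 2015.

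Among the 4 libraries labelled E12.5, PIR+ replicates 1 and 2 against PIR- replicates 2 and 3, 487 of the 524 higher and 140 of the 168 lower genes were called again on the deposited scale, and 310 and 165 on the other. The genes were chosen on these same libraries, so their direction there is no independent support. Both of these PIR+ libraries were low in globin with a matching markers field, and both PIR- libraries were globin-rich with the opposite field. Subset, globin content and markers sign therefore cannot be told apart among them. The libraries whose markers field matched the title are, in wild type, also those low in globin. The count called on both scales was 345 within the matching libraries, 302 within the opposite ones and 382 without the 5 globin-rich libraries of the series. These 3 fits reuse the same libraries and leave 1 wild-type subset with a single library, which is assumed to vary like the other groups. In wild type the markers sign and the globin content mark the same libraries and cannot be told apart. Without PIR+ wild-type replicate 3, 1320 genes were called on the deposited scale in place of 2015.

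**Figure D2:**
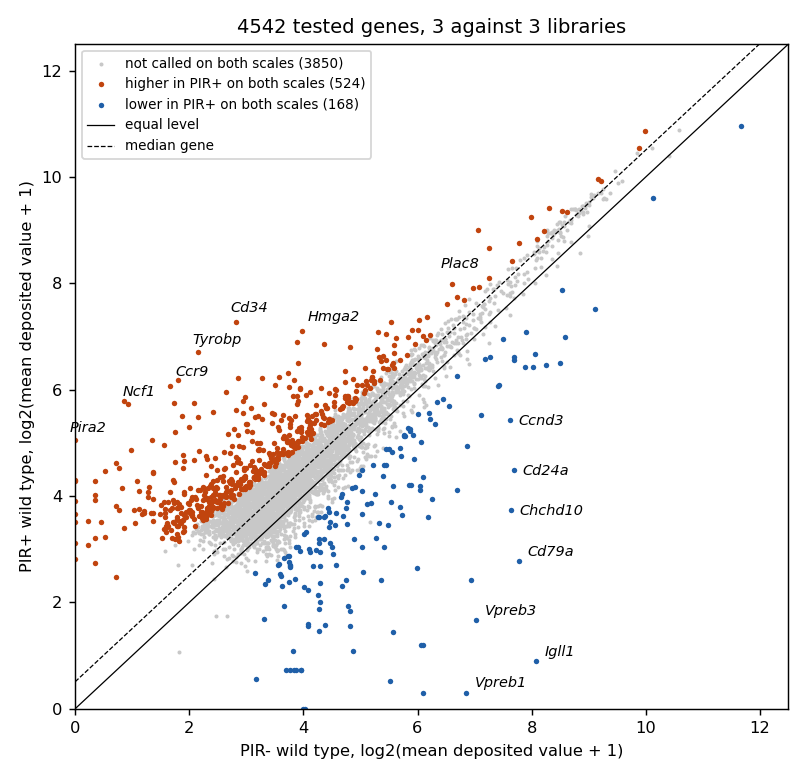
Each point is a tested gene, with log2(mean deposited value + 1) of the 3 PIR- libraries on the horizontal and of the 3 PIR+ libraries on the vertical axis. The dashed line marks the median gene, 0.51 above equality, and the orange (524) and blue (168) points are called on both scales.

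The largest differences of the comparison were those of Igll1 and Vpreb1, the genes of the surrogate light chain. Igll1, the lambda-5 part of the surrogate light chain (chromosome 16, 16860671 to 16863985), was 1.9, 0.0 and 0.7 in PIR+ and 233.2, 308.3 and 264.6 in PIR- libraries. The PIR+ libraries were at or near 0 and all PIR- libraries far above them, and the log2 difference of -7.30 ± 0.28 was the largest of all tested genes (adjusted p = 1.14e-43). Vpreb1, its partner in the surrogate chain, was 0.0, 0.0 and 0.7 against 92.5, 135.2 and 115.2 (log2 difference -6.58 ± 0.32, adjusted p = 6.54e-35). Vpreb3, a relative retained inside the cell, was 4.4, 0.7 and 1.4 against 108.1, 155.7 and 123.4 (-5.52 ± 0.30). Vpreb2, which stayed under the level for testing, was listed at 0 in each PIR+ library and was 8.7, 7.4 and 6.6 in PIR-. Vpreb1 and Vpreb2 are near copies, so reads may be split between them. All surrogate light chain genes were therefore near or at 0 in PIR+ and separated from it in every PIR- library. The signalling chain Cd79a was 8.9, 5.9 and 2.7 in PIR+ and 174.9, 244.0 and 237.4 in PIR- libraries (-5.10 ± 0.27, adjusted p = 3.29e-32). Its partner Cd79b was 13.3, 17.1 and 18.3 against 82.7, 110.0 and 116.4 (-2.59 ± 0.22), so a lower PIR+ level remained clearly above 0 in each library. Blnk, the adaptor that links the receptor to phospholipase C, was 3.2, 0.0 and 2.0 against 47.2, 43.4 and 49.7 (-4.36 ± 0.36). Cd24a, a surface sialoglycoprotein, was 27.3, 16.4 and 21.0 against 190.8, 174.3 and 249.9 (-3.20 ± 0.20).

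Of the 13 tested genes of pre-B receptor and B-cell signalling, 8 were lower and 2 higher in PIR+ on both scales, against 3.7% lower and 11.5% higher among all tested genes, and their median log2 difference was -3.20 against 0.51. The other 11 of the 24 genes listed did not reach the level for testing, and 6 of the 13 reached it only in PIR- libraries. The list ran both ways. Plcg2, the phospholipase that acts below Blnk, was 50.1, 70.4 and 69.8 in PIR+ and 22.8, 18.6 and 26.4 in PIR- (1.45 ± 0.22, adjusted p = 6e-08). Cd93, a surface antigen of early B cells and other progenitors, was 53.0 ± 2.53 against 28.2 ± 3.12 (0.89 ± 0.21, adjusted p = 0.000441, and 0.0462 on the other scale). In bulk samples such as these, fewer cells of a type and less RNA per cell cannot be told apart.

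**Figure D3:**
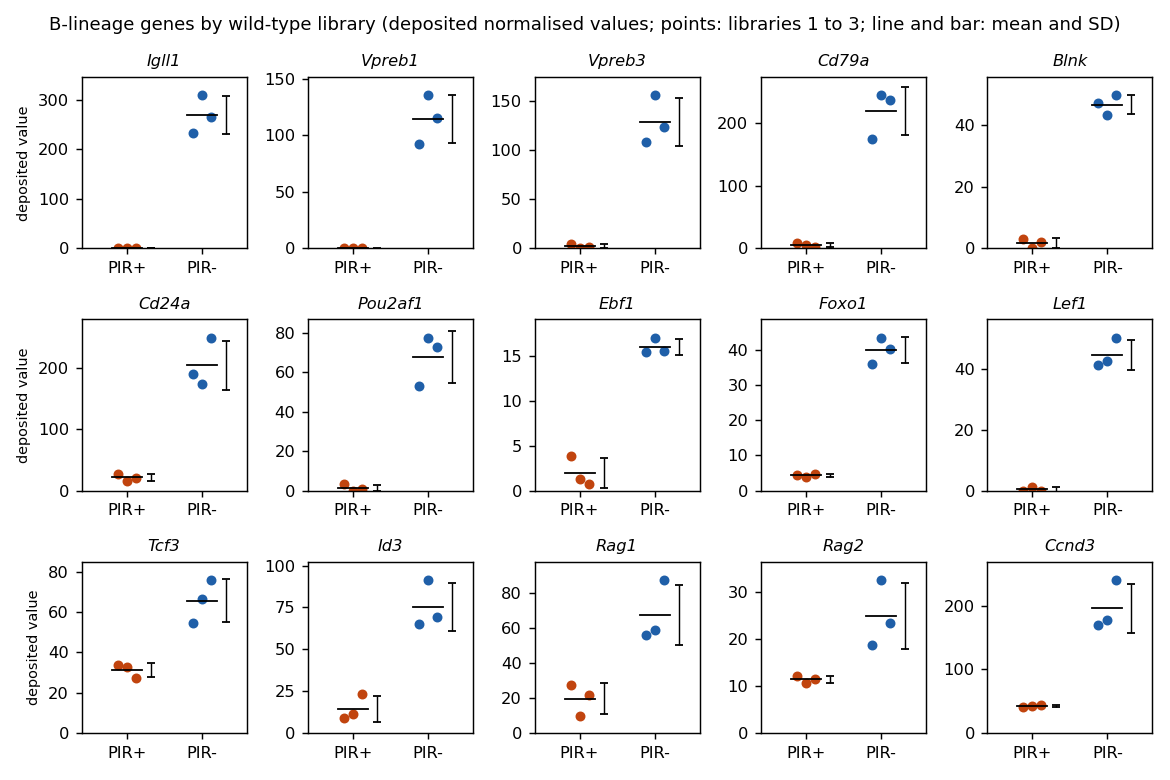
Deposited values of 15 genes by wild-type library, with points for replicates 1 to 3, a line at the mean and a bar of 1 SD. In each panel the 3 PIR- libraries (blue) lie above the 3 PIR+ libraries (orange), from Igll1 (269 against 0.867 on average) to Rag2 (24.8 against 11.4).

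Transcription factors of B-cell commitment were mostly lower in PIR+: 9 of 16 tested genes, with 1 higher and a median of -1.14. Among all tested genes 3.7% were lower and 11.5% higher, with a median of 0.51. Of the 16, 8 reached the level for testing only in PIR- libraries. Pou2af1, a coactivator of octamer-binding factors, was 3.2, 0.0 and 0.7 in PIR+ and 53.0, 77.5 and 72.9 in PIR- libraries (-5.14 ± 0.34, adjusted p = 3.94e-25). Lef1, an HMG-box factor of the Wnt pathway, was 0.0, 1.3 and 0.0 against 41.3, 42.6 and 50.4 (-5.11 ± 0.37). Both were close to 0 in PIR+ and far above it in every PIR- library. Foxo1, which acts on Rag and Il7r transcription in B-cell precursors, was 4.4, 3.9 and 4.7 against 36.0, 43.4 and 40.3 (-2.94 ± 0.29). Ebf1, the pioneer factor of the lineage, was 3.8, 1.3 and 0.7 against 15.4, 17.0 and 15.5 (-2.67 ± 0.40, adjusted p = 4.44e-08). Spib was 0.0, 0.7 and 2.7 against 12.2, 16.3 and 10.9 (-2.92 ± 0.51). The others that fell were Ets1, Bach2, Aff3 and Tcf3, by 1.04 to 1.63, and the call of Bach2 was lost within the libraries with the opposite markers field (adjusted p = 0.308). Pax5, which seals B-cell identity downstream of Ebf1, was listed at 0 in each PIR+ library and was 1.1, 0.0 and 0.8 in PIR-, and Ikzf3 was listed at 0 in all 6. Ikzf1, the Ikaros factor of early lymphoid progenitors, was the member that went the other way, at 85.0, 94.7 and 109.8 in PIR+ and 40.8, 35.6 and 41.1 in PIR- (1.27 ± 0.20, adjusted p = 9.35e-08). The Sox4 levels, 45.4 ± 5.78 against 25.0 ± 4.35, passed the test on the deposited scale only (0.84, adjusted p = 0.00136, and 0.236 on the other).

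E proteins and their inhibitors split by member. Of the 6 tested, 1 reached the level for testing only in PIR+ libraries. Tcf3, which encodes E2A, was 33.6, 32.9 and 27.1 in PIR+ and 54.6, 66.6 and 76.0 in PIR- libraries (-1.04 ± 0.21, adjusted p = 4.74e-05), with an adjusted p of up to 0.153 in the alternative fits. Tcf12 (HEB) was 12.7, 8.5 and 12.9 against 22.8, 11.6 and 24.8, with groups that overlapped and an adjusted p of 0.037, and its call was lost in 7 alternative fits, among them those without PIR+ replicate 2, PIR- replicate 1 or PIR- replicate 3. Tcf4 (E2-2), at 37.5 ± 6.60 and 41.1 ± 6.96, missed the threshold on the deposited scale (adjusted p = 0.608). The inhibitors Id2 and Id3, which keep E proteins from binding DNA, were high in opposite subsets. Id2 (chromosome 12, 25093799 to 25097140) was 38.1, 73.0 and 51.5 in PIR+ and 0.0, 0.8 and 1.6 in PIR- libraries (5.0 ± 0.38, adjusted p = 2.98e-21). Id3 (chromosome 4, 136143497 to 136145755) was 8.9, 11.2 and 23.0 against 65.2, 91.4 and 69.1 (-2.40 ± 0.25, adjusted p = 1.11e-13). Neither gene's groups overlapped, and Id2 was near 0 in PIR- whereas Id3 was measured in every library.

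Among genes of V(D)J recombination, 5 of 10 tested were lower and none higher in PIR+ on both scales. Of all tested genes 3.7% were lower and 11.5% higher, and the list's median was -0.33 against 0.51. Rag1, a subunit of the recombinase, was 27.3, 9.9 and 21.7 in PIR+ and 56.2, 58.9 and 87.7 in PIR- libraries (-1.81 ± 0.24, adjusted p = 1.05e-09). Rag2, the other subunit, was 12.1, 10.5 and 11.5 against 18.6, 32.5 and 23.3 (-1.03 ± 0.26, adjusted p = 0.00113). The Rag groups did not overlap, yet both genes were measured in every PIR+ library. The call of Rag2 was lost within the libraries whose markers field matched (-0.68, adjusted p = 0.18) and without the globin-rich ones (adjusted p = 0.258). Hmgb1 and Hmgb2, DNA-bending cofactors of the recombinase, were 233 ± 24.9 against 370 ± 55.2 and 135 ± 9.30 against 237 ± 20.4, and both calls were lost without the globin-rich libraries (adjusted p = 0.202 and 0.0801), that of Hmgb1 also within the matching ones. Top2b, a topoisomerase, fell by 0.55 (adjusted p = 0.0266), a call lost in 9 alternative fits, among them those without PIR+ replicate 1 or 2 or PIR- replicate 1 or 3. Dntt, the terminal transferase, was listed at 0 in all 6 libraries.

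Further genes led in PIR- outside these lists. Cplx2, a complexin of vesicle fusion, was 0.0, 0.0 and 0.7 in PIR+ and 47.2, 72.0 and 83.0 in PIR- libraries (-5.80 ± 0.34). Pde2a, a cyclic nucleotide phosphodiesterase, was 4.4, 3.3 and 5.4 against 106.0, 127.8 and 130.4 (-4.52 ± 0.25). Chchd10, a protein of the mitochondrial intermembrane space, was 7.6, 13.8 and 15.6 against 163.3, 233.9 and 194.0 (-3.93 ± 0.22). Akap12, a scaffold for protein kinase A, was 0.0, 2.0 and 1.4 against 22.3, 25.6 and 36.5 (-3.89 ± 0.42). None of these genes' groups overlapped. Socs2, a feedback inhibitor of cytokine signalling, was 1.9, 2.0 and 2.0 against 18.0, 17.8 and 23.3 (-2.79 ± 0.33). Bcl2l1, which encodes the survival protein Bcl-xL, was 7.67 ± 1.79 against 21.1 ± 3.65 (-1.36), the 1 called gene of 6 tested in the Bcl2 family. H19, an imprinted non-coding RNA, was 84.6 ± 8.86 against 261 ± 77.5 (-1.58). Dck, the deoxycytidine salvage kinase, and Slc16a1, a monocarboxylate transporter, fell by 1.82 and 1.67. Prkcb and Rasgrp2, which act in antigen-receptor signalling, fell by 2.09 and 1.34. The calls of Bcl2l1, Prkcb and Rasgrp2 were lost within the libraries with the opposite markers field.

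The D cyclins, which drive cells through G1, differed in direction by member. Ccnd1 was 51.4, 65.1 and 66.4 in PIR+ and 4.8, 3.1 and 7.8 in PIR- libraries (3.37 ± 0.25, adjusted p = 1.79e-22). Ccnd2 was 55.2, 62.5 and 83.4 against 16.4, 4.6 and 10.1 (2.71 ± 0.27). Ccnd3 went the other way, at 40.0, 42.7 and 43.4 against 170.2, 178.1 and 240.5 (-2.18 ± 0.19, adjusted p = 7.37e-18). E2f2, a transcription factor released by cyclin D kinases, was 4.4, 2.0 and 2.0 against 22.3, 22.5 and 34.9 (-2.89 ± 0.31). These 4 genes were those called on both scales among the 11 tested G1 regulators.

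Of 44 tested mitosis genes, 13 were lower in PIR+ on both scales and none higher, with a median of -0.28, and 31 were not called. Among all tested genes 3.7% were lower and 11.5% higher, with a median of 0.51. Of the 44, 2 reached the level for testing only in PIR- libraries. After scaling alone, 30 were lower. Nusap1, a spindle protein, was 17.8, 9.9 and 12.9 in PIR+ and 30.7, 33.3 and 41.9 in PIR- libraries (-1.34 ± 0.26, adjusted p = 1.44e-05). Ckap2 was 6.77 ± 0.451 against 16.4 ± 3.20 (-1.14), and Top2a was 97.4 ± 9.26 against 153 ± 11.8 (-0.64). The phosphatase Cdc25b and Mki67 fell by 1.37 and 0.80. The call of Cdc25b was lost within the libraries with the opposite markers field. Within the libraries whose markers field matched, and without the globin-rich ones, the calls of Mki67 (-0.37, adjusted p = 0.301 and 0.438), Top2a (0.113 and 0.25), Ckap2 (0.167 and 0.23) and Cdc25b (0.165 and 0.218) were lost. Plk1, a mitotic kinase, fell by 0.84 over all libraries but was 0.02 higher in PIR+ within those whose markers field matched the title, and its call was lost without PIR+ or PIR- replicate 3. Of 44 tested replication genes 1 (Rrm2, -0.62, lost without PIR+ replicate 2, within either set of libraries by markers field and without the globin-rich ones) was called on both scales. Their median was 0.29, and 12 were higher on the deposited scale where 11 were lower after scaling.

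Of 14 tested genes of neutrophils and monocytes, 12 were higher in PIR+ and none lower on both scales, with a median of 2.73. Among all tested genes 11.5% were higher and 3.7% lower, with a median of 0.51. The list holds 39 genes, 25 of which did not reach the level for testing, and 6 of the 14 reached it only in PIR+ libraries. Ncf1, a cytosolic subunit of the phagocyte NADPH oxidase (chromosome 5, 134220053 to 134229625), was 43.2, 48.0 and 65.1 in PIR+ and 2.7, 0.0 and 0.0 in PIR- libraries (5.08 ± 0.34, adjusted p = 3.39e-25). Cybb, the catalytic subunit, was 9.5, 11.2 and 10.8 against 0.5, 0.0 and 0.0 (3.33 ± 0.48), and its partner Cyba was 33.6, 47.4 and 44.1 against 13.8, 20.9 and 12.4 (1.37 ± 0.24). The oxidase genes thus separated the subsets without overlap, with Cyba alone clearly present in both. Tyrobp, the adaptor DAP12 of activating receptors, was 81.2, 121.0 and 109.1 against 8.0, 0.8 and 1.6 (4.89 ± 0.29, adjusted p = 8.73e-29). Csf1r, the receptor for macrophage colony-stimulating factor, was 23.5, 21.0 and 26.4 against 1.1, 0.8 and 0.0 (3.98 ± 0.35). Mpo, a granule peroxidase of early myeloid cells, was 47.0, 57.2 and 66.4 against 12.7, 3.1 and 4.7 (3.07 ± 0.27, adjusted p = 6.48e-18). Prtn3, a serine protease of the same granules, was 16.5, 25.6 and 24.4 against 5.8, 1.5 and 0.8 (2.86 ± 0.36). The Sfpi1 gene of PU.1, a master factor of myeloid cells, was 45.7, 55.2 and 54.9 against 9.0, 7.7 and 10.1 (2.42 ± 0.24). In each of these genes every PIR+ library exceeded every PIR- library. Alox5ap, a partner of 5-lipoxygenase in leukotriene synthesis, rose by 3.17, Emb by 2.59 and Plac8 by 1.40, and Fcer1g, the adaptor of PIR-A, was 6.3, 13.2 and 16.9 against 1.6, 2.3 and 0.0 (2.59 ± 0.46). Elane, a granule protease of early myeloid cells like Prtn3, and S100a8, a protein of mature neutrophils, were listed at 0 in all PIR+ libraries, and Lyz2 was at most 0.7 in the 6 libraries. Cebpa, a factor of granulocyte commitment, was 3.8, 5.9 and 6.1 in PIR+ and 0.5, 0.8 and 0.0 in PIR- and was not tested.

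Stem and multipotent progenitor genes were higher in PIR+ in 10 of 15 tested cases and lower in none, with a median of 1.87. Among all tested genes 11.5% were higher and 3.7% lower, with a median of 0.51. Of the 15, 7 reached the level for testing only in PIR+ libraries. Cd34, a sialomucin of progenitors, was 130.1, 162.4 and 166.1 in PIR+ and 8.0, 5.4 and 4.7 in PIR- libraries (4.47 ± 0.21, adjusted p = 1.85e-35). Mycn, a Myc family factor, was 33.0, 27.6 and 35.9 against 0.0, 2.3 and 2.3 (3.90 ± 0.35), while Myc itself was 42.5 ± 3.82 against 33.2 ± 2.90 and did not pass (0.35, adjusted p = 0.17). Both Cd34 and Mycn were separated without overlap. Lmo2, a bridging protein of stem cell transcription complexes, was 26.0 ± 7.60 against 3.90 ± 0.700 (2.43), and Meis1, a partner of Hox proteins, was 11.2 ± 3.69 against 2.43 ± 1.53 (1.87), a call lost within the libraries whose markers field matched and without the globin-rich ones. Hlf, a leucine zipper factor of stem cells, was 9.5, 4.6 and 4.1 in PIR+ and was listed at 0 in each PIR- library, so no fold is given for it and it counts above the list's median. Hoxa7 was likewise 3.8, 4.6 and 5.4 in PIR+ and listed at 0 in each PIR- library, below the level for testing. Of the fetal Lin28b program, whose RNA-binding and chromatin members mark fetal blood formation, 5 of 9 tested genes were higher and 1 lower. Hmga2, an architectural chromatin protein repressed by let-7, was 107.2, 127.6 and 173.5 against 16.4, 9.3 and 18.6 (3.14 ± 0.21, adjusted p = 5.68e-25). Arid3a was 63.8 ± 4.44 against 14.4 ± 3.93 (2.10), and Igf2bp1, Igf2bp2 and Igf2bp3 were all called higher.

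Cytokine receptors and their signalling proteins were more often higher in PIR+, with 8 of 18 tested genes higher and 1 lower (Socs2). Their median was 1.11 against 0.51 over all tested genes, of which 11.5% were higher and 3.7% lower. Of the 18, 4 reached the level for testing only in PIR+ libraries and 1 only in PIR- libraries. Flt3, the receptor of lymphoid and dendritic progenitors, was 64.1, 71.0 and 86.1 in PIR+ and 9.5, 3.1 and 6.2 in PIR- libraries (3.45 ± 0.25, adjusted p = 3.31e-23). Ifnar2, a chain of the type I interferon receptor, was 38.7, 37.5 and 44.1 against 8.5, 8.5 and 3.9 (2.43 ± 0.26). The phosphatase Ptpn6, which acts below PIR-B, was 53.9, 71.7 and 71.2 against 8.5, 10.1 and 18.6 (2.37 ± 0.24). In all 3 genes the libraries did not overlap. Il4ra and Stat3 rose by 2.14 and 1.51. Ptprc, which encodes CD45, was 43.2, 38.1 and 57.6 against 6.4, 11.6 and 11.6 (2.14 ± 0.26).

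**Figure D4:**
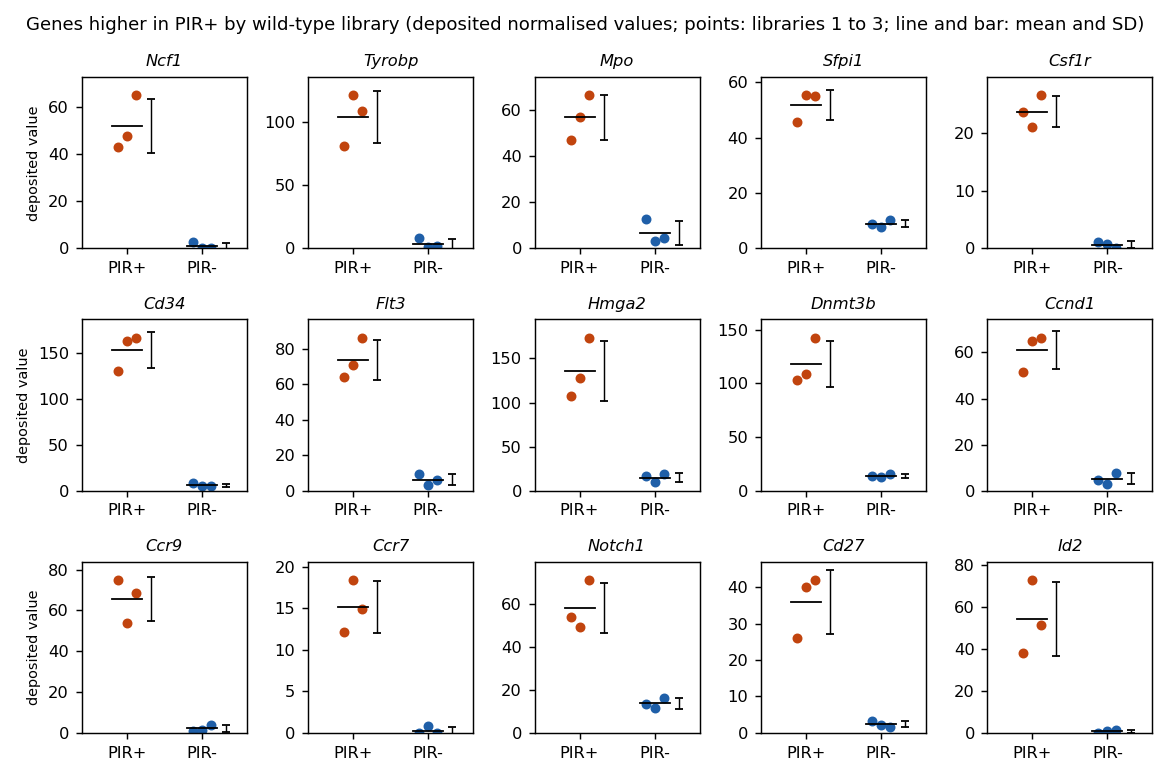
Deposited values of 15 genes by wild-type library, with points for replicates 1 to 3, a line at the mean and a bar of 1 SD. In each panel the 3 PIR+ libraries (orange) lie above the 3 PIR- libraries (blue), for example Cd34 (153 against 6.03 on average) and Notch1 (58.1 against 13.7).

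Homing receptors and adhesion molecules moved in both directions. Of 13 tested, 6 were higher and 2 lower in PIR+, against 11.5% and 3.7% of all tested genes. Of the 13, 4 reached the level for testing only in PIR+ libraries and 1 only in PIR- libraries. Ccr9, the chemokine receptor that guides progenitors to the thymus, was 74.9, 53.9 and 68.5 in PIR+ and 1.1, 1.5 and 3.9 in PIR- libraries (4.49 ± 0.34, adjusted p = 1.29e-21). The Ccr9 gene overlaps Lztfl1 in the annotation, and Lztfl1 was also called higher, so reads of the pair may be mixed. Ccr7, which acts with Ccr9 in fetal thymus colonization, was 12.1, 18.4 and 14.9 against 0.0, 0.8 and 0.0 (3.71 ± 0.48, adjusted p = 4.42e-10). Both receptors were thus present in every PIR+ library and near 0 in PIR-. Itgb2 and Itgal, the chains of the integrin LFA-1, were 8.2, 11.8 and 15.6 against 1.6, 0.0 and 3.1 (2.51 ± 0.40) and 14.6, 13.2 and 14.9 against 3.7, 2.3 and 0.8 (2.33 ± 0.37). Cd44, a hyaluronan receptor, was 23.9 ± 0.473 against 6.17 ± 0.850 (1.80), and Cd47 was 80.4 ± 7.29 against 36.3 ± 5.55 (1.13). Cxcr4, the receptor for the marrow chemokine Cxcl12, was 9.0 ± 3.04 against 15.5 ± 3.85. The Cxcr4 groups overlapped and its difference of -0.74 lay at the threshold (adjusted p = 0.05), and the call was lost in 14 alternative fits, among them those without PIR+ replicate 1 or 3 or PIR- replicate 2 or 3.

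Notch and T-lineage genes with tested levels were higher in PIR+ in 4 of 6 cases and lower in 1, with a median of 1.82. Among all tested genes 11.5% were higher and 3.7% lower, with a median of 0.51. Of the 6, 3 reached the level for testing only in PIR+ libraries. The 4 were a pair of Notch receptors and a pair of surface antigens. Notch1, the receptor that commits thymus-seeding cells to the T lineage, was 53.9, 49.3 and 71.2 in PIR+ and 13.3, 11.6 and 16.3 in PIR- libraries (2.00 ± 0.23, adjusted p = 3.31e-12), and Notch2 was 12.1, 9.9 and 12.2 against 1.6, 3.9 and 3.9 (1.64 ± 0.41), a call lost within the libraries with the opposite markers field. Cd27, a TNF receptor of lymphoid-primed progenitors, was 26.0, 40.1 and 42.0 against 3.2, 2.3 and 1.6 (3.46 ± 0.31), and Cd7 was 21.6, 19.1 and 14.9 against 0.0, 0.8 and 0.0 (3.99 ± 0.64). The Notch target Hes1 was lower, at 12.7, 7.9 and 12.9 against 18.0, 19.4 and 17.1 (-0.68, adjusted p = 0.0457), and this call was lost in 13 alternative fits, among them those without any of the wild-type libraries except PIR+ replicate 1. Genes of T-cell specification were low and untested. Gata3 was 2.5, 4.6 and 2.7 in PIR+ and 0.0, 0.0 and 0.8 in PIR-, Tcf7 was 1.9, 2.6 and 2.0 in PIR+ and listed at 0 in each PIR- library, and Lck was 7.0, 11.8 and 8.1 against 1.6, 1.5 and 2.3. Cd3e, Cd3d and Thy1 were listed at 0 in all 6 libraries. Among genes of innate lymphoid and NK cells, Nfil3, a factor of that lineage, was 8.9, 18.4 and 12.9 against 1.1, 0.8 and 0.0, below the level for testing over the 12 libraries, and Ltb, a lymphotoxin chain, rose by 1.44, a call lost within the libraries whose markers field matched and without the globin-rich ones. Ncr1 was listed at 0 in all 6, and Eomes and Zbtb16 did not exceed 1.3.

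Of Runx factors and their partners, 3 of 5 tested genes were higher in PIR+ and none lower, against 11.5% and 3.7% of tested genes. Of the 5, 2 reached the level for testing only in PIR+ libraries. Runx3 was 12.9 ± 1.55 in PIR+ and 3.47 ± 1.69 in PIR- libraries (1.70 ± 0.35), and Runx2 was 12.1, 7.2 and 16.3 against 1.6, 1.5 and 0.8 (2.44 ± 0.40). Cbfa2t3, a corepressor that binds Runx and E protein complexes, was 40.0, 41.4 and 29.8 against 9.5, 9.3 and 14.0 (1.68 ± 0.26). Cbfb, the shared subunit of Runx proteins, did not pass (0.52, adjusted p = 0.0805).

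Of 27 tested chromatin regulators, 5 were higher and 4 lower in PIR+, against 11.5% and 3.7% of all tested genes. Their median was 0.33 against 0.51 over all tested genes. Dnmt3b, a de novo DNA methyltransferase, was 103.4, 108.5 and 142.4 in PIR+ and 13.3, 12.4 and 15.5 in PIR- libraries (3.01 ± 0.21, adjusted p = 3.31e-23). Dnmt3a, the other such enzyme, was 43.8, 46.0 and 40.7 against 14.8, 10.8 and 11.6 (1.74 ± 0.24). Neither gene's groups overlapped. Jarid2, a subunit of Polycomb complex PRC2, was 15.8 ± 4.28 against 5.23 ± 1.60 (1.43). Cbx2, a chromobox protein of Polycomb complex PRC1, fell by 1.08.

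Interferon-inducible genes rose in 3 of 10 tested cases and fell in 1, against 11.5% and 3.7% of all tested genes. Of the 10, 2 reached the level for testing only in PIR+ libraries and 1 only in PIR- libraries. Ifitm1, a membrane protein of antiviral defence, was 49.5, 49.3 and 59.7 in PIR+ and 1.6, 2.3 and 3.1 in PIR- libraries (4.03 ± 0.34), and Ifitm3 was 14.0, 32.9 and 43.4 against 2.7, 2.3 and 0.8 (3.33 ± 0.34). Ifitm2, their neighbour in the family, was 24.2 ± 5.79 against 21.3 ± 3.06 and did not pass (0.16, adjusted p = 0.618), and reads may be split among these similar genes. Ifi30, a lysosomal thiol reductase, was lower (-1.89). Of MHC class I genes and antigen processing 5 of 10 tested were higher and none lower, with a median of 1.16. B2m, the light chain of class I molecules, was 155.5, 157.2 and 180.3 against 72.6, 65.1 and 73.7 (1.21 ± 0.18, adjusted p = 2.46e-08). The immunoproteasome subunits Psmb8 and Psmb10, the loading factor Tapbp and the proteasome activator subunit Psme1 rose by 1.27 to 1.41. Without the globin-rich libraries the calls of Tapbp and Psmb10 were lost, that of Tapbp also within those whose markers field matched. The heavy chains did not pass: H2-K1 was 10.8 ± 3.41 against 7.30 ± 1.74 and H2-D1 was 16.9 ± 0.902 against 11.4 ± 3.0.

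Actin cytoskeleton and related genes were called higher in 19 of 41 tested cases and lower in 2, against 11.5% and 3.7% of tested genes. S100a11 was 28.6, 44.1 and 39.3 in PIR+ and 3.7, 7.0 and 7.0 in PIR- libraries (2.49 ± 0.29). Gsn and Capg, proteins that cap or sever filaments, rose by 1.91 each. Abundant genes were included: Tmsb4x, the actin-binding peptide thymosin beta 4, was 683 ± 68.4 against 316 ± 22.6 (1.11 ± 0.16) and Actb was 1853 ± 255 against 1019 ± 94.1 (0.86 ± 0.16). Lgals9, a galectin, was 45.1, 43.4 and 46.8 against 119.8, 149.5 and 141.2 (-1.57 ± 0.19), and Crip1, a small LIM protein, was 94.6, 98.0 and 85.4 against 175.5, 226.2 and 214.2 (-1.13 ± 0.19), with an adjusted p of 0.0533 for Crip1 without the globin-rich libraries. Both galectin and Crip1 libraries were separated without overlap in the direction opposite to the rest. Gimap GTPases, survival proteins of lymphocytes, were higher in 3 of 5 tested cases. Of these 5, 2 reached the level for testing only in PIR+ libraries. Gimap6 was 25.0 ± 2.51 against 3.93 ± 2.17 (2.48 ± 0.28).

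Counts in the following lists stand against 11.5% higher and 3.7% lower over all tested genes, and nothing is read from a share near these. Of 31 tested genes of Ras, PI3K and phosphatase signalling 4 were higher (Ptpn6, Ptprc, Pik3cg and Grb2) and 2 lower (Prkcb and Rasgrp2). Of 14 glycolysis genes, the glucose transporters Slc2a3 and Slc2a1 were higher, and Slc16a1 was lower. Slc2a3 was 11.4, 13.8 and 12.9 in PIR+ and 4.2, 3.1 and 3.1 in PIR- libraries (1.62 ± 0.35), and Slc2a1 was 12.97 ± 2.43 against 5.03 ± 3.50 (1.44 ± 0.34), a call lost without PIR- replicate 1, at labelled E12.5 (0.67, adjusted p = 0.211) and within the libraries with the opposite markers field (adjusted p = 0.0728). Of 12 genes of nucleotide salvage, the nucleotide phosphohydrolase Samhd1 was higher (2.24) and Dck and Pnp were lower. The difference of Pnp was small (-0.42), and its call was lost in 14 alternative fits, among them those without any PIR+ replicate or without PIR- replicate 1 or 2. Of 6 immediate early genes 1 was higher (Zfp36l2) and 1 lower (Jund), and of 17 genes of ER chaperones and the unfolded protein response 3 were higher (Calr, Pdia6 and P4hb). Of 50 translation factors 2 were higher (Eef1a1, lost within the matching and without the globin-rich libraries, and Eef1g) and 1 lower (Eef2k). Of the tested genes of the Hox, Myc and Tsc22 groups, 1 each was called, namely Meis1 of 3, Mycn of 5 and Tsc22d1 of 2, all higher, and of 3 imprinted genes H19 was lower. Of 15 endothelial genes 2 were tested and both were higher. Egfl7, which is also made by blood progenitors, was 56.5, 62.5 and 73.9 in PIR+ and 16.4, 16.3 and 24.1 in PIR- libraries (1.73 ± 0.21), and Eng, also a stem cell antigen, was 11.4, 13.8 and 13.6 against 3.7, 5.4 and 5.4 (1.27 ± 0.33).

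Other leading genes of PIR+ came from no list. Nrgn, a calmodulin-binding protein, was 62.2, 76.3 and 76.6 in PIR+ and 3.7, 1.5 and 2.3 in PIR- libraries (4.42 ± 0.30). Rgs18, which limits G-protein signalling, was 31.1, 28.3 and 25.1 against 2.1, 0.0 and 0.8 (4.03 ± 0.38), and Ebi3, a cytokine subunit of IL-27 and IL-35, was 18.4, 19.7 and 25.8 against 0.5, 0.0 and 0.8 (3.99 ± 0.33). Slc35d3 was 19.7, 20.4 and 26.4 against 2.1, 0.0 and 0.0 (3.98 ± 0.39). In all 4 the PIR- libraries were near 0 and none reached the lowest PIR+ library.

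**Figure D5:**
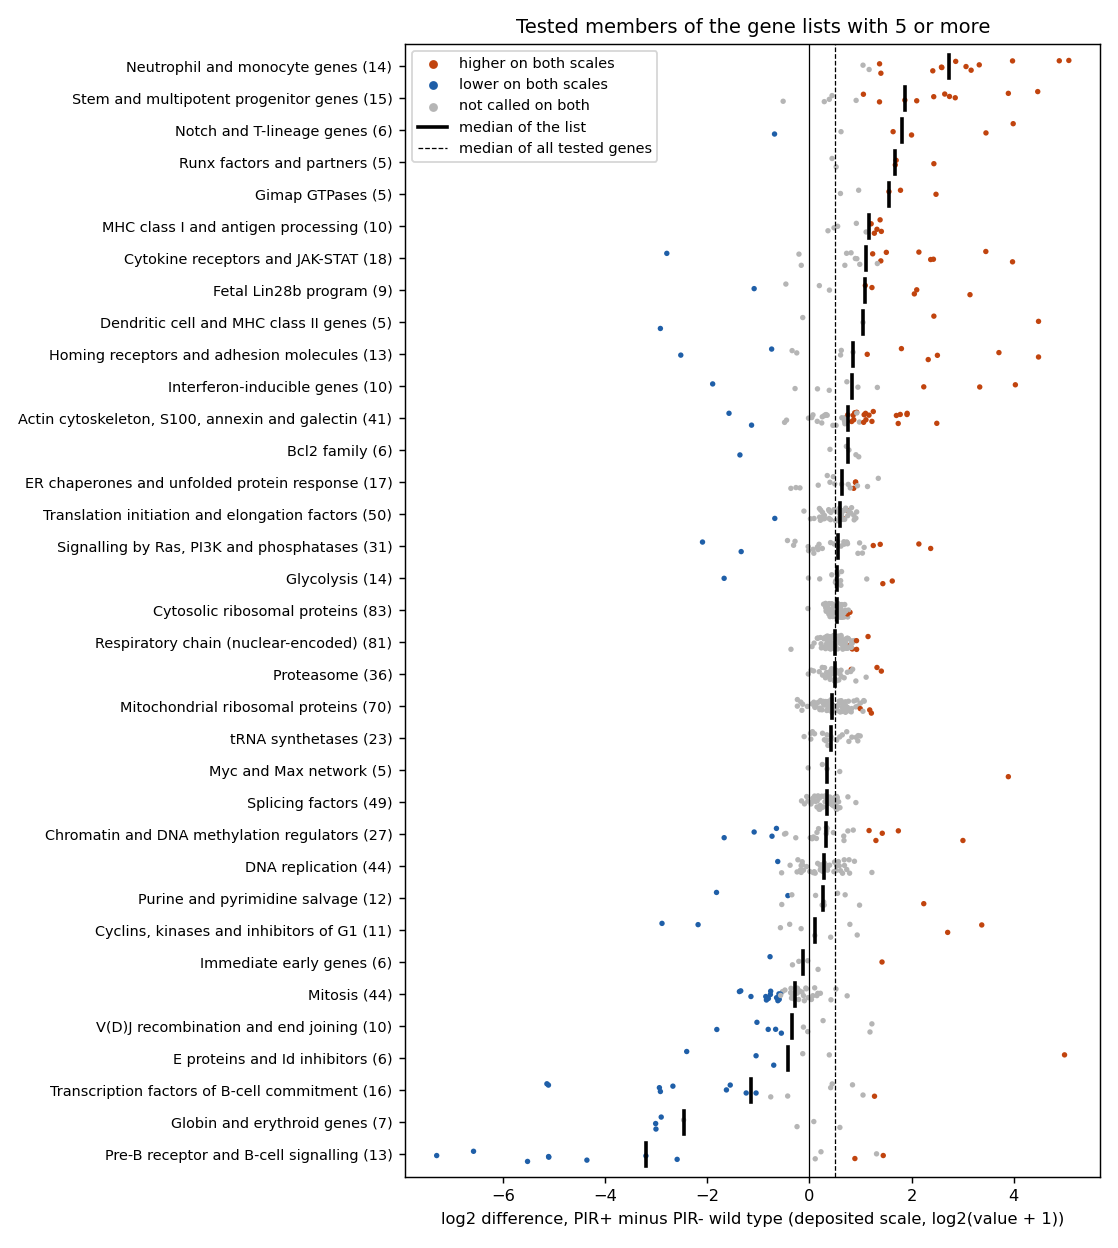
Log2 difference (PIR+ minus PIR- wild type, deposited scale) of each tested member of the gene lists with at least 5 such members, with the number in brackets, a thick line at each list's median and a dashed line at the median of all tested genes (0.51). Myeloid, stem, Notch and Runx lists lie to the right, pre-B receptor and B-cell factor lists to the left, and the ribosomal, respiratory and proteasome lists lie on the dashed line.

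Genes of general cell functions followed the scale. Of 83 tested cytosolic ribosomal protein genes, 74 were higher on the deposited scale, with a median of 0.53, but the median was 0.02 after scaling and 4 were called on both. Medians on the 2 scales were 0.50 and -0.01 for 81 respiratory chain genes (5 called on both), 0.49 and -0.01 for 36 proteasome genes (3) and 0.45 and -0.04 for 70 mitochondrial ribosomal genes (3), all called members being higher. Of 49 splicing factors and 23 tRNA synthetases none was called by limma on both scales, and 0 and 2 had an unadjusted p under 0.05 with the same sign on both. The deposited scale alone gave 15 and 10 calls, all higher, and the other scale alone gave 13 and 2, all lower. Gapdh, a glycolytic enzyme, was 677 ± 103 against 435 ± 28.4 and passed on the deposited scale only (0.63, adjusted p = 0.00167, and 0.243 after scaling). The shift of the median gene, 0.51, is of the size of these differences.

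Some genes were listed at 0 in 1 subset and above 0 in all 3 libraries of the other. There were 211 listed at 0 in PIR- and 42 listed at 0 in PIR+, of which 8 and 2 reached the level for testing. Most were low, with median means of 1.53 and 1.75 in the subset that had them. Besides the Pira genes, the highest in PIR+ were Stc1, a secreted glycoprotein hormone, at 18.7 ± 4.66, and Cdh17, a cadherin, at 16.5, 24.3 and 14.9. Wfdc17 was 12.1, 9.9 and 9.2, and the chemokine gene Ccl4 was 8.2, 8.5 and 7.5. In PIR-, Alpl, a tissue alkaline phosphatase, was 9.5, 14.7 and 21.7, Tmem255a was 15.4, 13.9 and 15.5 and Chst3, a sulfotransferase, was 7.4, 5.4 and 6.2. The molecules behind a value near 1 are few, and a value of 0 shows only that none was listed.

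Some called genes lie side by side, which is given as a description of position. Among 1736 pairs of tested genes closer than 50 kb, 29 pairs (1.67%) were both higher and 10 (0.576%) both lower on both scales. The shares of single genes, 11.5% and 3.7%, are not comparable, since a pair counts only where both members are called. No share for unrelated pairs was computed. Igll1 and Vpreb1 lie 4.4 kb apart on chromosome 16. Chchd10 (75933130 to 75937747) and Vpreb3 (75943057 to 75949657) lie 5.3 kb apart on chromosome 10. Id3 and E2f2 lie 26.6 kb apart on chromosome 4, and Rag2 and Rag1 lie 5.8 kb apart on chromosome 2. In the other direction, Ifitm1 and Ifitm3 lie 39.8 kb apart on chromosome 7, Il4ra and Il21r 24.0 kb apart on the same chromosome and Lst1 and Ltb 6.0 kb apart on chromosome 17. Mndal and Ifi203 overlap in the annotation, so their reads may be mixed.

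Levels of markers of other cell types differed between libraries. Hba-a1, which encodes adult alpha globin, was 12.4, 8.2 and 359.6 in PIR+ and 62.6, 481.4 and 604.1 in PIR- libraries, Beta-s, a beta globin entry, was 5.1, 7.9 and 531.5 against 77.4, 780.2 and 793.3, and both were called on both scales although the subsets overlapped. Within the libraries with the opposite markers field both calls were lost (adjusted p = 0.727 for Hba-a1 and 0.698 for Beta-s), and reads of Hba-a1 may be split with its copy Hba-a2. The summed level of a list of 26 globin and erythroid genes, which does not hold Beta-s, was 87.6 to 984.4 in PIR+ and 217.9 to 1682.9 in PIR-. In the globin-rich wild-type libraries this list summed to less than all globin genes, whose shares are given above. The list is therefore no measure of their globin content. Alas2, the erythroid enzyme of haem synthesis, reached at most 6.2, and Klf1, an erythroid transcription factor, at most 3.2. Hepatocyte genes summed to 20.3 to 30.2 in PIR+ and 19.4 to 81.8 in PIR-, where Alb was 3.7, 6.2 and 29.5 and Afp was 6.9, 8.5 and 21.7, both highest in replicate 3. That library also had the highest endothelial Lyve1 (10.1) and Cdh5 (7.0), each otherwise at most 0.7. Macrophage genes summed to 2.7 to 6.5 and 0.3 to 12.1, and Cd5l was listed at 0 in all 6. Megakaryocyte genes summed to 13.2 to 19.7 and 3.1 to 7.2, mast cell and basophil genes to 4.1 to 5.7 and 0.0 to 0.8, stromal genes to 7.1 to 14.6 and 0.0 to 11.7, and mature T-cell genes to 5.0 to 6.9 and 1.2 to 2.3. None of these 4 lists, nor the hepatocyte and macrophage lists, had a tested member. Of dendritic cell genes, Cd74 was 7.6, 6.6 and 4.7 in PIR+ and listed at 0 in each PIR- library, and Siglech was 4.4, 3.3 and 2.7 against 0.5, 0.0 and 0.0. The part of these cell types in the differences was not tested.

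The wild-type difference was compared with that in KO, which uses other libraries of the same subsets. The test of the difference between the 2 differences called 26 of 4542 genes (0.572%), 5 higher (0.11%) and 21 lower (0.462%) in KO than in wild type, and 34 (0.749%) after scaling. More KO than wild-type libraries are labelled E14.5, so labelled day is not balanced in this comparison. With labelled day as a covariate, 30 genes were called on the deposited scale. Among the genes that led in wild type, Cd7 was 18.5 ± 3.39 in PIR+ wild type but 0.167 ± 0.289 in PIR+ KO libraries, and it passed the filter only through the PIR+ wild-type group, so no test is given for it here. Ifitm1 was 12.4 ± 7.08 in PIR+ KO and 6.47 ± 4.05 in PIR- KO libraries (-3.25 ± 0.48, adjusted p = 4.74e-06). Ncf1 was 30.2 ± 7.55 and 4.80 ± 0.872 (-2.67 ± 0.47), and Mpo was 47.8 ± 8.23 and 22.5 ± 8.36 (-1.95 ± 0.38). Cd79a was 0.333 ± 0.577 and 190 ± 66.6 in KO, so its subset difference was larger there (-2.09 ± 0.38). For Gimap4 the subset difference was larger in KO in the other direction, 58.9 ± 6.93 against 8.20 ± 3.14 (1.80 ± 0.39, adjusted p = 0.00612).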

How the data were processed

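RNA of 100 sorted cells per tube was measured in 12 libraries, 3 in each of 4 groups, and groups were taken from the sample titles. Per the labels, ERCC spike-in RNA was added to every tube for normalisation and cDNA carried molecular barcodes. Per the submitters' processing notes, the authors used TopHat2, the build mm10 and DESeq2, with no versions given, and the tool that counted molecules is not given in the sources used here. The deposited values have the unit signal: in each library most low values are multiples of 1 step, as molecule counts that the authors divided by 1 factor would be, while 1.07% to 1.39% of the values above 0 lie below that step, so whole molecules cannot be assumed. Sums still differ between libraries, and no count test was run. Normalisation by an added RNA keeps differences in RNA per tube, whereas median-of-ratios scaling removes them, which can turn the direction of a small difference. The authors also deposited p-values (unit p_value) of a DESeq2 test, with no word on adjustment, and these are given only where named.

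Genes at 10 or more in at least 3 of 12 columns were tested with limma 3.58.1 (trended prior, R 4.3.3) on log2(value + 1), with 4 group means, all 12 libraries and Benjamini-Hochberg adjustment over all 4542 genes. The added 1 shrinks the fold changes of low genes. The fit was checked on simulated data with libraries of equal size and few changed genes, as many higher as lower. That check does not cover the differences in sums, globin and direction seen here. Differences are PIR+ minus PIR-, with the standard error of the fit. Locations are from GENCODE M21 (GRCm38), found for 4519 of the tested genes, and promoters are from RefSeq. Figures used matplotlib 3.10.9. Depth is known only as the summed value per library, so no counting intervals are given.

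Members and 47 gene lists were chosen with earlier results of these data known. A list is described by its counts and median, beside those over all tested genes, and not tested. The pattern that picks tRNA synthetases was corrected after it was seen to take other genes. Genes were named by rule: up to 12 per direction with the largest difference among genes called on both scales, averaging 20 or more in the higher subset, without overlap; up to 3 per direction and up to 3 of the most abundant of each list; up to 5 per direction by the KO comparison; the genes of the gate; and up to 12 per direction of the genes listed at 0 in 1 subset. Others, such as Plk1, Notch2, Cd93, Sox4, Lck, Nfil3, Ptprc, Cd24a and several low markers, were added after their values were seen. Alternatives changed the constant, filter, scaling, libraries and covariates. Some genes counted in the lists are not reported here by name.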

Additional observations from a re-analysis of the deposited data

Results flagged for a closer look

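The subset difference (PIR+ minus PIR-) was not the same in KO and wild type for 26 genes by the limma test of the difference itself, and the values in brackets are the KO difference minus the wild-type difference on the log2 scale. Myeloid genes that were high in PIR+ wild type differed less between the subsets in KO: Ncf1 (-2.67), Tyrobp (-1.87), Csf1r (-1.89), Mpo (-1.95), Emb (-1.40) and Plac8 (-1.05). The same held for genes of progenitors and others high in PIR+ wild type: Flt3 (-1.72), Cd34 (-1.34), Hmga2 (-1.39), Cd7 (-3.80), Ccnd2 (-2.07), Nrgn (-1.80), Ifitm1 (-3.25), Ifitm3 (-2.12) and Tsc22d1 (-2.17), and for Gpr171 (-1.69) and Irf2bp2 (-1.36). Genes high in PIR- wild type differed more in KO: Cd79a (-2.09), Trp53i11 (-2.11) and Crip1 (-1.14). For Cd79a the change lay in a PIR+ level that was low in both wild type and KO. Tfrc was also lower (-1.29). Cd7 passed the filter on low values only through PIR+ wild type, so its call is in part set by the filter. The 5 genes with a higher value were Pnp (1.13), Tspan6 (1.61), Gimap4 (1.80), Mmrn1 (2.51) and Beta-s (3.59). Beta-s lies in the globin genes, which were high in 5 of the 12 libraries, and their part in it was not tested. After median-of-ratios scaling Tsc22d1, Csf1r, Tyrobp and Beta-s were not called (adjusted p 0.0626, 0.0699, 0.152 and 0.562).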

How the results depend on the processing

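Most counts depend on scaling, filter and libraries. Genes called between the subsets in wild type numbered 2015, but 1294 with a filter at 20, 1025 after median-of-ratios scaling, 1073 with library sums set equal and 848 of the same 4542 genes by a p under 0.05 in the authors' deposited table, where 1151 of all 9134 genes with a p are under 0.05. They numbered 1053 within libraries whose markers field matched the title, 984 within the opposite ones, 893 at labelled E12.5 and 700 without the 5 globin-rich libraries, the last chosen after seeing the data. Leaving out 1 library gave 1320 to 2083. The count on both scales, 692, was 434 with a filter at 20, 345 and 302 within the matching and opposite libraries, 458 at E12.5, 382 without globin-rich libraries and 551 to 688 with 1 library left out. These fits hold fewer genes or libraries, and an arm left with 1 library is assumed to vary like the others. At labelled E12.5 subset, globin content and markers sign coincide in wild type. The 26 genes that differed between KO and wild type were 3 without a filter, 10 and 0 within the matching and opposite libraries, 6 without globin-rich libraries, 15 without PIR+ wild-type replicate 2 and 15 to 33 over all single libraries. Beside the count of 0 from limma, 195 of 4542 genes had an unadjusted p under 0.05, and 2 were called by limma after median-of-ratios scaling. The cause of these changes was not tested. The ratio of library sums was 1.28 to 1.44 without single libraries. Of 148 genes followed, 107 kept direction and call in every alternative. Many of these genes were named for large differences in the same libraries. Their stability is thus in part set by that choice and does not stand for all called genes. Il7r turned to 0.0111 within the opposite libraries and Plk1 to 0.0182 within the matching libraries and without globin-rich libraries. Replicates of the same number in the wild-type subsets correlated at 0.046, -0.0458 and 0.0302 in their deviations, so the numbers were not taken as pairs. With the replicate block 2409 genes were called, 699 on both scales and 34 in the comparison with KO.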
